A study of Mus musculus with 4 samples.

Results

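The DNA replication and S phase genes described here are 43 genes whose products copy the genome or prepare it for copying. They were chosen by name for what they do, and all 43 were found among the 22574 genes counted in nuclei of neonatal mouse cardiomyocytes. The study asked what the transcription factor Nrf1, encoded by Nfe2l1, does in the injured neonatal heart. Mice with loxP sites around that gene (Nrf1 fl/fl, called WT) were compared with Nrf1 fl/fl mice that also carried Cre under the alpha myosin heavy chain promoter (aMHC-Cre, called KO). That promoter is active in cardiomyocytes, so other cell types of the KO heart keep the gene. All mice were of a C57BL/6 background. At postnatal day 3 they had the left anterior descending artery of the heart tied off (MI, myocardial infarction) or a Sham operation, and the study's methods place tissue collection on the next day. Each of the 4 libraries, WT-Sham, KO-Sham, WT-MI and KO-MI, came from 1 pool of 4 to 6 hearts cut below the ligation plane. There was 1 library for each group, so no difference between groups could be tested against a spread between replicates, and no p-value is given.

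Before S phase, the origin recognition complex with Cdc6 and Cdt1 loads the Mcm2 to Mcm7 ring onto DNA, a step called licensing. In S phase the ring is activated by Cdc45 and the GINS complex, primase and DNA polymerase alpha start each new strand, and the sliding clamp Pcna with its loader keeps the other polymerases on the template. Transcription of most of these genes is switched on by E2F factors near the start of S phase and is low in resting cells. Mouse cardiomyocytes leave the cell cycle during the first weeks after birth, and in many of them the last S phase ends with a second nucleus rather than a second cell, so S phase transcripts in this tissue do not by themselves mean cell division.

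Promoters are shown first because a shared E2F-type sequence is the best known feature of this gene class. Windows from 250 bases upstream to 50 bases downstream of each annotated start (RefSeq, GRCm38.p6) were read for 35 of the 43 genes, in 40 windows. Mcm4, Gins1, Gins2, Prim2, Pole, Ccne2, Atad2 and Exo1 had no entry. The letters TTTCCCGC, TTTGGCGC, TTTCGCGC and TTTGCCGC were searched on both strands, and matches may overlap because the complement of 1 form can run into the next. A match was present in 17 of the 40 windows (42.5%) against 744 of 32851 windows of all genes (2.26%). By form, TTTCCCGC was found in 20% of the windows against 1.07% of all, TTTGGCGC in 15% against 0.514%, TTTCGCGC in 20% against 0.323%, and TTTGCCGC in 0 windows against 0.441%. The stretches below come from 7 genes with a match that carry different steps of replication, and from Neil3, whose window held no match although its RNA was the most concentrated in 1 population of nuclei. Capitals mark matches, all stretches read 5′ to 3′ on the gene's own strand, and all lie upstream of the annotated start. A match describes letters and says nothing on binding.
Mcm6 (chr1:128359741-128359830, minus strand): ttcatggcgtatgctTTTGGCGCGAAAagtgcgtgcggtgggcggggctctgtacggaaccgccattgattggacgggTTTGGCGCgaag
Mcm5 (chr8:75109329-75109388, plus strand): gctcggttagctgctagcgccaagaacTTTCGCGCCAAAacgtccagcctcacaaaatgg
Orc1 (chr4:108579394-108579453, plus strand): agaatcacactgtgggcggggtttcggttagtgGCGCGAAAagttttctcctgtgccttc
Pola1 (chrX:93632261-93632320, minus strand): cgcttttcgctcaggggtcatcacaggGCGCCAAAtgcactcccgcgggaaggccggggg
Hells (chr19:38930900-38930959, plus strand): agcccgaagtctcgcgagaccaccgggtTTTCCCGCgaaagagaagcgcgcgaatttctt
Dtl (chr1:191575545-191575604, minus strand): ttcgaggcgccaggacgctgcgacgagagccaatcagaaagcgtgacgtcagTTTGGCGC
E2f7 (chr10:110745214-110745273, plus strand): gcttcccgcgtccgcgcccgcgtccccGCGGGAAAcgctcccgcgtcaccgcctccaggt
Neil3 (chr8:53639066-53639155, minus strand): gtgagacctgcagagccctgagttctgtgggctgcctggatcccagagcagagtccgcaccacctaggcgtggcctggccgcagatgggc
In Mcm6 the forward and reverse forms ran into each other and another match stood closer to the start, and in Mcm5 a forward and a reverse match overlapped. Matches were also present for Mcm3, Mcm7, Cdc6, Cdt1, Pold1, Pold3, Rfc3, Lig1, Uhrf1 and Clspn, so the licensing genes held 7 of the 17 genes with a match.

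The libraries held 1406 nuclei for WT-Sham, 3328 for KO-Sham, 2003 for WT-MI and 1848 for KO-MI, with 4984625 to 9106522 unique molecular identifiers (UMIs, 1 for each captured RNA molecule). Median depth ran from 2572 UMIs per nucleus in KO-Sham to 3959 in KO-MI. The median mitochondrial share of UMIs was 6.58% in WT-Sham, 8.98% in KO-Sham, 5.37% in WT-MI and 5.29% in KO-MI. The authors had kept cardiomyocytes and named 4 populations, CM1, CM2, CM4 and CM5. All 12 cardiomyocyte markers were detected in each of the 4 populations of every library. All 8 endothelial and all 7 fibroblast genes were likewise detected in CM1 of every library, so detection in a sum does not tell cell types apart. Of the barcodes, 9 occurred in a pair of libraries (18 nuclei, 1 in CM2). Nfe2l1 was at 62.2 CPM (UMIs of a gene per 1000000 UMIs) in WT-Sham and 50.5 in KO-Sham, and at 47.4 in WT-MI and 55.3 in KO-MI. In the MI pair the gene was thus not lower in the library labelled KO-MI. In the Sham pair it was lower in KO-Sham (counting interval 46.0 to 55.3) than in WT-Sham (55.5 to 69.5). KO-Sham was not below WT-MI (42.7 to 52.4), so neither KO library lacked most of the gene's RNA. Which part of the gene the counted reads cover was not determined here. Both KO libraries are named by their labels throughout, and any direction drawn from either rests on its label. CM2 of WT-MI held 1 nucleus in which 3964 of 9599 UMIs came from the 5 red blood cell genes. It raised that list in CM2 to 18447 CPM in WT-MI, against 1051 to 1892 CPM in the other libraries.

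CM2 was the population in which the replication genes were concentrated, and outside CM2 they were present at a low level in every library. Over all 43 genes 18143 UMIs were counted, and 19.6% of them lay in the 275 nuclei of CM2, which held 3.62% of all UMIs. CM2 is a population that the authors defined from the expression of these same nuclei, and whether the 43 genes were among the features used was not determined here, so its high level is given as a description of the population and not as a finding about it. Inside CM2 the summed level was 4586 CPM in WT-Sham (95% interval 4199 to 5000, 27 nuclei), 3004 in KO-Sham (2838 to 3178, 124 nuclei), 3449 in WT-MI (3226 to 3684, 57 nuclei) and 3247 in the library labelled KO-MI (3042 to 3461, 67 nuclei). Intervals here and below cover counting error only, not differences between pools of hearts. Nuclei above 2500 genes had been removed before deposit, and that limit lay nearer to CM2 in some libraries than in others. In CM2 14.8% of nuclei in WT-Sham, 0.806% in KO-Sham, 17.5% in WT-MI and 13.4% in KO-MI had 2400 or more genes. How the limit bears on the CM2 comparisons, here and below, was not tested. The summed level was highest in WT-Sham and lowest in KO-Sham. WT-Sham rested on the fewest nuclei, 5 of which held 28.9% of its UMIs from these genes. In nuclei outside CM2 the order was another. The summed level was 445 CPM in WT-Sham (426 to 464), 513 in KO-Sham (498 to 528), 501 in WT-MI (485 to 517) and 579 in the library labelled KO-MI (562 to 597). WT-Sham was the lowest there, KO-Sham and WT-MI had overlapping intervals, and the library labelled KO-MI was the highest.

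**Figure D1:**
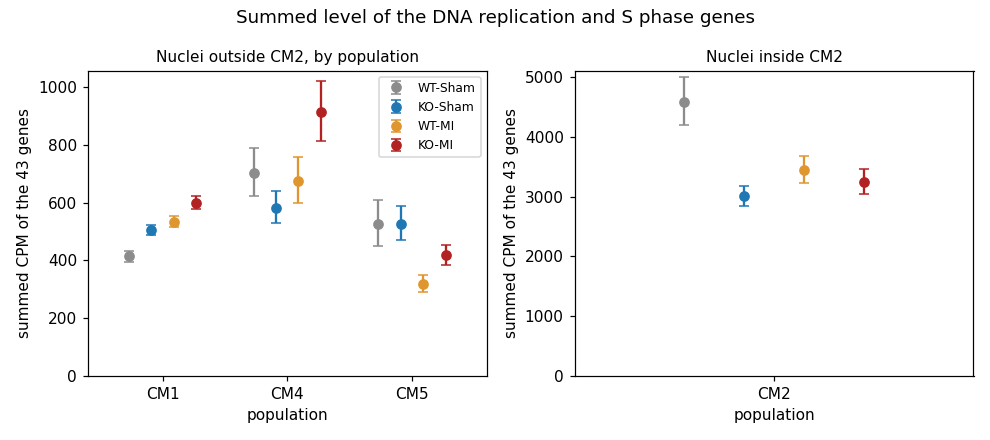
Summed level of the 43 replication genes in CPM (y axes, from 0) for each of the 4 libraries (x axes), in CM1, CM4 and CM5 on the left and in CM2 on the right. Points are 1 library each and bars are 95% Poisson intervals. In CM2 WT-Sham stands highest at 4586 CPM, while in CM1 it stands lowest at 414 CPM.

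Most nuclei outside CM2 belonged to CM1, where the level was 414 CPM in WT-Sham, 505 in KO-Sham, 534 in WT-MI and 600 in the library labelled KO-MI. WT-Sham was thus lowest and KO-MI highest there too, and CM4 and CM5 did not follow that order. In CM4 the level was 703 CPM in WT-Sham, 583 in KO-Sham, 676 in WT-MI and 914 in the library labelled KO-MI. RNA of several other cell types was also high in CM4. There the 5 red blood cell genes ranged from 3538 CPM (KO-MI) to 12805 CPM (WT-Sham), the 7 fibroblast genes from 1966 to 2460 CPM and the 8 endothelial genes from 352 to 554 CPM, with every gene of these lists detected in all 4 libraries. In CM1 the fibroblast list ran from 895 to 1047 CPM and the endothelial list from 99.5 to 137 CPM. The 4 mural genes were at 171 to 282 CPM in CM4 and at 209 to 395 CPM in CM1, lower in CM4 in 3 of the 4 libraries. The part of these lists in the CM4 values was not tested. In CM5 the replication genes were at 526 CPM in WT-Sham, 527 in KO-Sham, 319 in WT-MI and 417 in the library labelled KO-MI, both MI libraries lying below both Sham libraries.

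Counting nuclei rather than UMIs gave a picture that depended on depth. Outside CM2, a nucleus with 3 or more UMIs of the 43 genes was found in 17.6% of nuclei in WT-Sham (243 of 1379, exact interval 15.6 to 19.7), 15.7% in KO-Sham (502 of 3204), 26.8% in WT-MI (521 of 1946) and 31.4% in the library labelled KO-MI (559 of 1781). Both MI libraries were above both Sham libraries, and KO-Sham, the shallowest library, was the lowest. After thinning every nucleus to 2000 UMIs, which left out 189, 673, 144 and 87 shallower nuclei in the same order, the shares were 7.31%, 10.2%, 10.2% and 13.2%. The KO minus WT difference after Sham was -1.95 percentage points (-4.41 to 0.415) before thinning and 2.84 points (0.849 to 4.73) after it. The values before and after thinning come from different nuclei, since shallower ones were left out. Thinned to 1000 UMIs, which kept nearly all nuclei, the difference was 0.412 points (-2.66 to 3.45) at a cutoff of 1 UMI. At a cutoff of 2 UMIs it was 1.41 points (-0.496 to 3.22), so its direction was not settled. The MI minus Sham difference was 9.15 points in WT and 15.7 points in KO before thinning, and 2.84 and 3.01 points after it. The cutoff runs through the bulk of the distribution: outside CM2, 283, 557, 393 and 367 nuclei had exactly 2 UMIs and 109, 226, 228 and 225 had exactly 3.

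Inside CM2 nearly every nucleus passed that cutoff. The share was 100% in WT-Sham (27 of 27, 87.2 to 100), 91.9% in KO-Sham (114 of 124), 91.2% in WT-MI (52 of 57) and 85.1% in the library labelled KO-MI (57 of 67), and thinned to 2000 UMIs it was 100%, 83.5%, 77.2% and 77.6%. The median nucleus of CM2 held 18 UMIs of the genes in WT-Sham, 9 in KO-Sham, 16 in WT-MI and 13 in KO-MI, and the median nucleus outside it held 1, 1, 1 and 2. Over all nuclei 19.2%, 18.5%, 28.6% and 33.3% passed.

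The genotype and surgery comparisons of the summed level gave log2 ratios of 0.13 to 0.21 over all nuclei. Over all nuclei the log2 ratio of the summed level was 0.21 for KO over WT after Sham (0.15 to 0.28), 0.20 for KO over WT after MI (0.14 to 0.26), 0.15 for MI over Sham in WT (0.08 to 0.22) and 0.13 for MI over Sham in KO (0.08 to 0.19). These comparisons share libraries in pairs and are not independent of each other. With TMM scaling, which removes a shift of the typical gene between libraries, the ratio for KO over WT after Sham was 0.32. With every nucleus thinned to 1000 UMIs, which gives each nucleus the same weight, that ratio was 0.090 (0.067 outside CM2). The cause of that change was not tested. Outside CM2 the ratios were 0.21, 0.21, 0.17 and 0.18 in the same order. The CM2 ratios differed in sign among comparisons, at -0.61 for KO over WT after Sham (-0.76 to -0.46), -0.09 after MI (-0.22 to 0.05), -0.41 for MI over Sham in WT (-0.57 to -0.25) and 0.11 in KO (-0.01 to 0.24). The value of -0.09 became 0.21 when nuclei were thinned to 1000 UMIs and 0.05 without the nuclei richest in RNA of other cell types, so its direction was not settled.

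Gene by gene, a difference of 2-fold or more with at least 20 UMIs over both sums stands in for a call, since nothing could be tested. Over all nuclei 2 of the 43 genes were 2-fold higher and 0 lower in KO-Sham than in WT-Sham, against 1.41% of all genes higher and 1.15% lower. After MI 0 were higher and 0 lower in KO over WT, against 0.833% and 1.1% of all genes. For MI over Sham in WT 3 were higher and 0 lower, against 6.23% and 5.28%, and in KO 0 were higher and 0 lower, against 5.96% and 4.15%. The genes past 2-fold were Mcm10 and Cdc6 for KO over WT after Sham and Mcm10, Cdc6 and Polq for MI over Sham in WT. Levels over all nuclei also depend on how many nuclei were in CM2. These were 27 of 1406 in WT-Sham, 124 of 3328 in KO-Sham, 57 of 2003 in WT-MI and 67 of 1848 in KO-MI. Of the UMIs of Mcm10 28.8% lay in CM2, and of those of Cdc6 25.5%. How far the share of CM2 nuclei bears on the ratios over all nuclei was not tested. Most genes leaned one way by less, with 35, 34, 31 and 28 of the 43 above a ratio of 0 in the 4 comparisons over all nuclei. Their median log2 ratio was 0.27, 0.20, 0.19 and 0.13, while the median over all genes was -0.09, 0.03, -0.07 and 0.04. Outside CM2 2 genes, Cdc6 and Polq, were 2-fold higher and 1 gene, E2f7, was lower for MI over Sham in WT, against 6.3% of all genes higher and 5.47% lower. In the other comparisons outside CM2 0 genes of the set were past 2-fold, against 1.22% of all genes higher and 1.23% lower for KO over WT after Sham, 0.839% and 1.05% after MI, and 6.17% and 4.22% for MI over Sham in KO.

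Inside CM2 fewer genes had enough UMIs, and the lean was downward where WT-Sham was the reference. For KO over WT after Sham 27 genes could be compared, of which 0 were 2-fold higher and 7 lower, against 8.64% of all genes higher and 4.76% lower. After MI 1 of 29 was higher and 1 lower, against 3.89% and 2.67%. For MI over Sham, 0 of 24 were higher and 1 lower in WT, against 7.03% and 5.34%, and 0 of 32 were higher and 1 lower in KO, against 4.29% and 5.45%. The median ratio of the genes compared was -0.57, -0.09, -0.35 and 0.15, and the all-gene median lay between 0.00 and 0.04. Since the 7 genes and the sum share the same 27 nuclei of WT-Sham, they are not separate evidence.

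**Figure D2:**
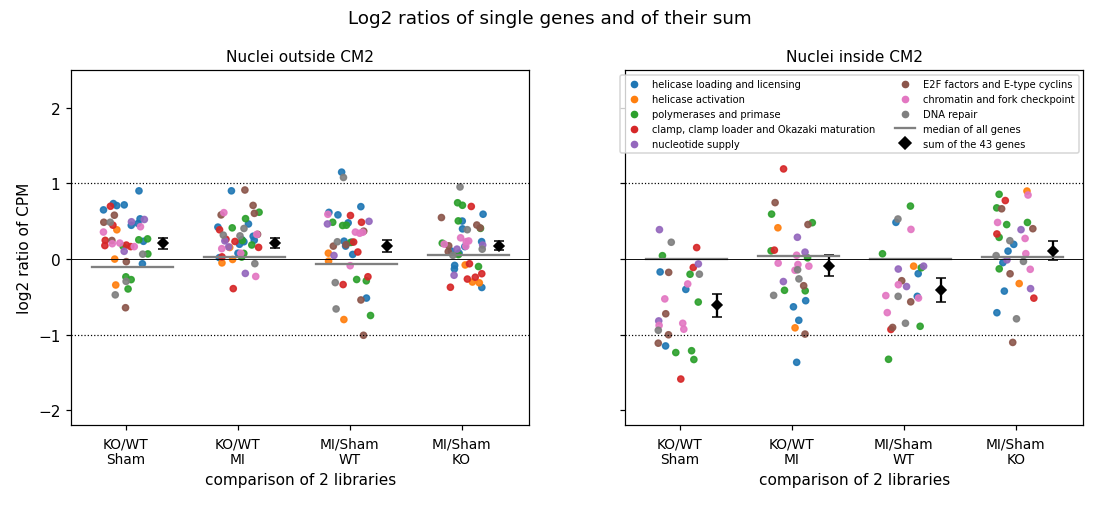
Log2 ratio of the CPM of each replication gene (dots, y axis) in the 4 comparisons (x axis), outside CM2 on the left and inside CM2 on the right, for genes with at least 20 UMIs over both sums. Diamonds with bars are the 43 genes summed with their 95% interval, the grey line is the median of all genes compared and dotted lines mark 2-fold. Outside CM2 the dots lie mostly above 0, with medians of 0.17 to 0.24, and inside CM2 they lie mostly below 0 in both comparisons against WT-Sham.

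Among the 10 licensing genes the summed level over all nuclei was 82.5 CPM in WT-Sham, 113 in KO-Sham, 101 in WT-MI and 116 in the library labelled KO-MI. WT-Sham was the low library, 9 of the 10 genes being lower in it than in KO-Sham and 9 lower than in WT-MI. The KO over WT ratio after Sham was 0.45 (0.28 to 0.62) over all nuclei and 0.43 (0.26 to 0.61) outside CM2. Mcm6, a subunit of the helicase ring, stood at 13.6 CPM in WT-Sham, 21.5 in KO-Sham, 20.1 in WT-MI and 21.9 in KO-MI. The other 3 libraries were close to each other, and the log2 ratio to WT-Sham was 0.66 for KO-Sham (0.25 to 1.08) and 0.56 for WT-MI (0.14 to 0.99). Mcm10, which helps to activate the ring and start synthesis, had 2.01 CPM in WT-Sham (10 UMIs), 4.28 in KO-Sham (39), 4.52 in WT-MI (36) and 4.48 in KO-MI (33). WT-Sham again stood apart, at log2 ratios of 1.09 (0.07 to 2.26) and 1.17 (0.13 to 2.35), and its CM2 nuclei held 0 UMIs of the gene, which allows up to 3 of their UMIs. Cdc6, which loads the ring onto the origin complex, was at 1.40 CPM in WT-Sham (7 UMIs), 2.86 in KO-Sham (26), 4.02 in WT-MI (32) and 3.94 in KO-MI (29). Its ratio was 1.02 for KO over WT after Sham (-0.22 to 2.47) and 1.52 for MI over Sham in WT (0.31 to 2.94).

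Cdt1, the partner of Cdc6 in loading, was at 6.82 CPM in WT-Sham, 11.1 in KO-Sham, 11.3 in WT-MI and 13.3 in KO-MI, again lowest in WT-Sham. In CM2 it was at 44.4, 39.5, 62.2 and 24.1 CPM (5, 16, 16 and 7 UMIs), and there the library labelled KO-MI was 2-fold below WT-MI at a log2 ratio of -1.37 (-2.89 to 0.00). Mcm7 was the exception among the ring subunits, at 18.9 CPM in WT-Sham, 17.6 in KO-Sham, 13.6 in WT-MI and 13.9 in KO-MI, with both Sham libraries above both MI libraries. Its annotated span overlaps those of Ap4m1, Cops6 and microRNA genes, and it is not stated whether counting used strand, so its UMIs are uncertain. Inside CM2 Mcm7 was at 71.1, 32.1, 50.5 and 34.5 CPM, from 8 to 13 UMIs each. The ring subunits Mcm2, Mcm3, Mcm4 and Mcm5 and the origin subunit Orc1 were all lowest in WT-Sham over all nuclei, with ranges such as 10.6 to 15.0 CPM for Mcm2 and 4.21 to 8.70 CPM for Orc1.

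The helicase activation genes were few and showed no common order. Gins2, a GINS subunit, was at 11.6 CPM in WT-Sham, 10.9 in KO-Sham, 11.8 in WT-MI and 10.7 in KO-MI, values that lie within their counting error of each other. Gins1, another subunit of that complex, was at 11.4, 9.88, 6.66 and 7.88 CPM, both Sham libraries lying above both MI libraries. For Cdc45 the level ranged from 4.81 to 6.37 CPM.

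The polymerase and primase genes were highest in the library labelled KO-MI as a sum, and single genes differed in order. Their sum over all nuclei was 161 CPM in WT-Sham, 157 in KO-Sham, 170 in WT-MI and 204 in the library labelled KO-MI, which was above WT-MI by a log2 ratio of 0.26 (0.15 to 0.37) and above KO-Sham by 0.38 (0.27 to 0.48). For MI over Sham in WT the ratio of the sum was 0.08 (-0.05 to 0.21), with 4 of the 7 genes above 0. Pola1, the catalytic subunit of polymerase alpha, stood at 59.2 CPM in WT-Sham, 61.4 in KO-Sham, 73.7 in WT-MI and 85.1 in KO-MI. Both MI libraries were above both Sham libraries, with MI over Sham ratios of 0.32 (0.11 to 0.52) in WT and 0.47 (0.30 to 0.64) in KO. Inside CM2 the order was not the same, at 604 CPM in WT-Sham (68 UMIs), 257 in KO-Sham (104), 326 in WT-MI (84) and 352 in KO-MI (102). There WT-Sham stood far above the other libraries, and MI over Sham was -0.89 (-1.37 to -0.41) in WT and 0.45 (0.05 to 0.86) in KO. Pola1 spans 327389 bases, and because introns were counted its UMIs cannot be set beside those of a short gene as a level.

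Prim1, the small catalytic subunit of primase, was at 21.5 CPM in WT-Sham, 16.1 in KO-Sham, 16.5 in WT-MI and 25.5 in KO-MI. WT-Sham and KO-MI were high and the other libraries low, so the KO over WT ratio was -0.41 after Sham (-0.78 to -0.04) and 0.63 after MI (0.30 to 0.97). In CM2 Prim1 was at 204 CPM in WT-Sham against 81.4 in KO-Sham, 81.6 in WT-MI and 114 in KO-MI, from 21 to 33 UMIs each. Prim2, the large primase subunit, was at 20.1, 22.6, 27.5 and 28.8 CPM over all nuclei, higher in both MI libraries, and at 133, 116, 140 and 141 CPM in CM2, where no library stood apart. Pola2, the regulatory subunit of polymerase alpha, was at 25.9, 21.5, 16.6 and 20.9 CPM over all nuclei and at 80.0, 34.5, 73.8 and 55.1 CPM in CM2, with KO-Sham the low library there. Of the other genes of this group, Pole was at 8.23, 9.88, 12.4 and 16.2 CPM, and Pold1 and Pold3 ranged from 6.62 to 9.65 and from 16.2 to 19.9 CPM.

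The clamp, its loader and the genes that join Okazaki fragments were lowest in WT-Sham and highest in KO-Sham, with 73 CPM in WT-Sham, 93 in KO-Sham, 79 in WT-MI and 90 in KO-MI as their sum. Pcna, the clamp, was at 28.5 CPM in WT-Sham, 38.5 in KO-Sham, 32.4 in WT-MI and 34.4 in KO-MI. The KO over WT ratio after Sham was 0.44 (0.15 to 0.73) and after MI 0.08 (-0.17 to 0.34). In CM2 Pcna was at 53.3, 49.3, 27.2 and 62.0 CPM from 6, 20, 7 and 18 UMIs, so the 2-fold difference there between WT-MI and the library labelled KO-MI rested on few molecules and its interval was wide, at 1.19 (-0.14 to 2.69). Lig1, the ligase that seals Okazaki fragments, was at 13.4 CPM in WT-Sham, 13.5 in KO-Sham, 16.7 in WT-MI and 21.7 in KO-MI. The Sham libraries were alike for Lig1 and the library labelled KO-MI was the highest. In CM2 Lig1 was at 133 CPM in WT-Sham and 44.4 in KO-Sham, a log2 ratio of -1.59 (-2.66 to -0.49), and at 69.9 and 75.8 CPM in WT-MI and KO-MI. Among the clamp loader genes Rfc3 ranged from 7.82 (WT-Sham) to 13.5 CPM (KO-Sham), and Rfc4, Rfc5 and the flap nuclease Fen1 stayed within 9.43 to 14.5, 3.61 to 5.40 and 6.79 to 8.68 CPM.

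Of the nucleotide supply genes, Tyms, which makes thymidylate, was at 22.7 CPM in WT-Sham, 29.98 in KO-Sham, 30.7 in WT-MI and 33.3 in KO-MI. It shared the low WT-Sham value with the licensing genes, at ratios of 0.40 (0.08 to 0.73) for KO-Sham and 0.44 (0.11 to 0.77) for WT-MI. In CM2 the same gene was highest in WT-Sham, at 204 CPM against 116 in KO-Sham, 186 in WT-MI and 152 in KO-MI. Rrm1, the large subunit of ribonucleotide reductase, was at 20.9, 23.4, 21.5 and 25.8 CPM over all nuclei with overlapping intervals. Its partner Rrm2 ranged from 9.23 CPM (WT-Sham) to 14.6 CPM (KO-Sham).

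E2F factors and E-type cyclins are regulators rather than parts of the replication machine. Of the repressors among them, E2f7 had 65.5% of its UMIs in CM2 and E2f8 43.2% (34.4 to 52.4). E2f1, an activating factor, was at 8.83 CPM in WT-Sham, 8.35 in KO-Sham, 6.16 in WT-MI and 9.51 in KO-MI over all nuclei, and at 80.0, 37.0, 42.7 and 58.6 CPM in CM2. WT-MI was the low library over all nuclei and KO-Sham in CM2. E2f7, a repressor of E2F target genes, was at 142 CPM in WT-Sham (16 UMIs), 126 in KO-Sham (51), 117 in WT-MI (30) and 58.6 in KO-MI (17) inside CM2. There the library labelled KO-MI was the low one, with a log2 ratio of -1.10 to KO-Sham (-1.99 to -0.29), the only gene of the set past 2-fold for MI over Sham in CM2 of KO. Outside CM2 E2f7 was at 2.87, 1.84, 1.43 and 2.69 CPM from 11 to 19 UMIs, and WT-MI was 2-fold below WT-Sham at a log2 ratio of -1.01 (-2.29 to 0.24). E2f8, its paralogue, was at 88.9, 44.4, 35.0 and 58.6 CPM in CM2 from 9 to 18 UMIs, and at 3.14 to 5.30 CPM over all nuclei. Ccne2, a cyclin that drives entry into S phase, was at 7.42, 8.68, 8.80 and 10.3 CPM over all nuclei and at 97.8, 59.2, 66.0 and 51.7 CPM in CM2, lowest in WT-Sham in the first and highest in the second. Ccne1 ranged from 2.41 to 4.48 CPM.

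Over the 5 chromatin and fork checkpoint genes the summed level in CM2 was 1342 CPM in WT-Sham, 770 in KO-Sham, 971 in WT-MI and 910 in the library labelled KO-MI, with WT-Sham standing apart at a KO over WT ratio after Sham of -0.80 (-1.09 to -0.51). Atad2, a chromatin ATPase induced by E2F, was at 755 CPM in WT-Sham (85 UMIs), 397 in KO-Sham (161), 462 in WT-MI (119) and 417 in KO-MI (121) inside CM2. Outside CM2 Atad2 was at 21.8, 25.2, 27.8 and 30.6 CPM, so WT-Sham was the highest library inside CM2 and the lowest outside it. Hells, a chromatin remodeller needed for DNA methylation, had the same arrangement, with 231, 126, 183 and 176 CPM inside CM2 and 18.9, 21.7, 24.2 and 25.5 CPM outside it. Dtl, which targets Cdt1 for destruction during S phase, differed from both. It was at 124, 86.3, 163 and 155 CPM in CM2, higher in both MI libraries, with an MI over Sham ratio of 0.85 in KO (0.18 to 1.53). Clspn, an adaptor of the fork checkpoint, was at 133, 106, 93.2 and 96.5 CPM in CM2, and Uhrf1 ranged there from 54.3 to 97.8 CPM.

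Neil3, a glycosylase that repairs oxidized bases and crosslinks at forks, had most of its UMIs in CM2. Its level there was 329 CPM in WT-Sham (37 UMIs), 286 in KO-Sham (116), 183 in WT-MI (47) and 165 in KO-MI (48), while outside CM2 it was at 2.26, 1.84, 1.82 and 2.40 CPM. Both Sham libraries were above both MI libraries in CM2, with MI over Sham ratios of -0.85 (-1.50 to -0.19) in WT and -0.79 (-1.31 to -0.29) in KO. In nuclei, at least 1 UMI of Neil3 was seen in 18 of 27, 61 of 124, 22 of 57 and 31 of 67 nuclei of CM2 and in 10, 16, 14 and 16 of the nuclei outside it. Polq, the polymerase of end joining repair, was at 88.9, 104, 128 and 107 CPM in CM2 and at 3.08, 3.22, 6.49 and 6.22 CPM outside it. Both MI libraries were above both Sham libraries outside CM2, at MI over Sham ratios of 1.08 (0.22 to 2.02) in WT and 0.95 (0.24 to 1.69) in KO, while in CM2 the counting intervals of the 4 libraries overlapped. Brip1 ranged from 72.4 to 142 CPM in CM2, and Exo1 had 36 UMIs there in all.

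**Figure D3:**
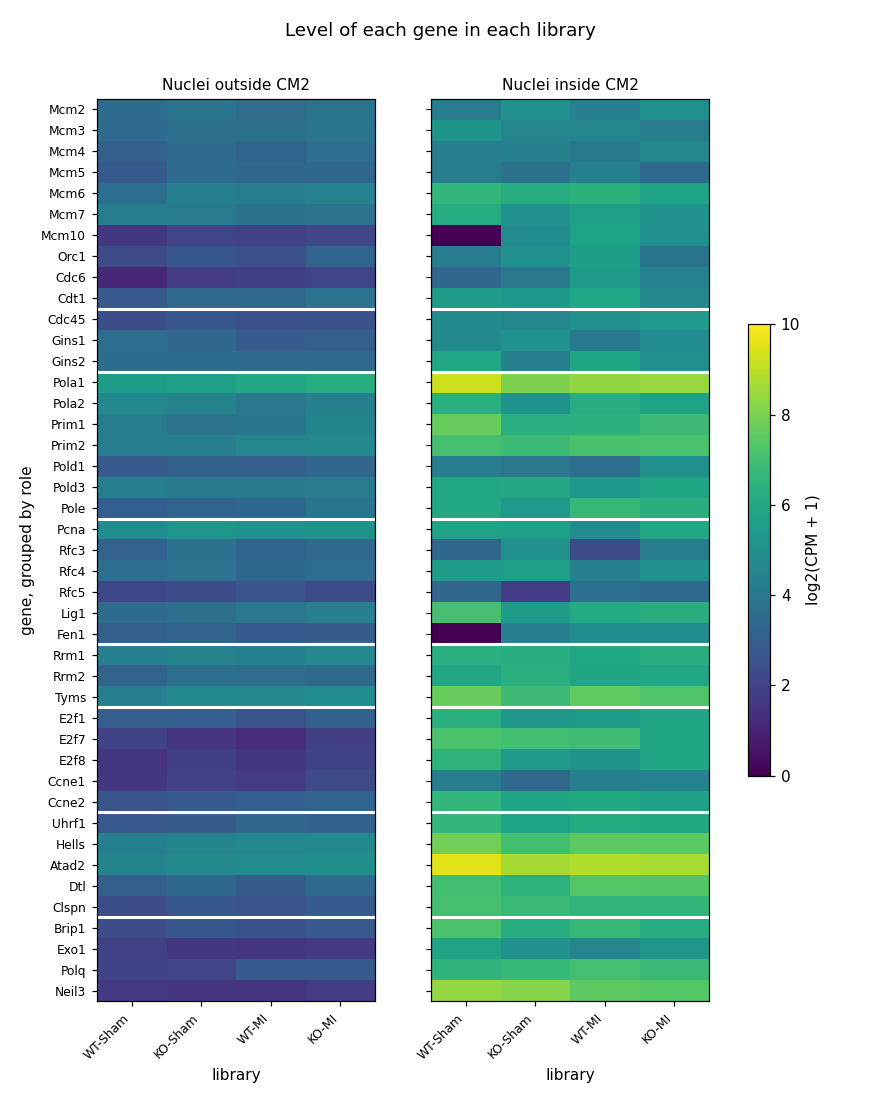
Level of each of the 43 genes as log2(CPM + 1) (colour) in the 4 libraries (columns), outside CM2 on the left and inside CM2 on the right, with genes ordered by role (rows). Colours are to be read along a row, since introns were counted and genes differ in length. Neil3 and E2f7 change most between the panels, Pcna and Mcm5 change little, and Mcm10 and Fen1 are at 0 UMIs in CM2 of WT-Sham.

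How far a gene was concentrated in CM2 differed widely between genes, also within a role group. Of the UMIs of each gene, 81.0% lay in CM2 for Neil3 (76.2 to 85.3), 65.5% for E2f7, 45.8% for Polq, 43.2% for E2f8, 41.7% for Clspn and 39.2% for Atad2. At the other end were Pcna at 5.08% (3.81 to 6.63), Mcm5 at 5.54%, Rfc5 at 6.20%, Mcm3 at 6.45% and Rfc3 at 6.64%, close to the 3.62% of all UMIs. By role group the share was 54.8% for the repair genes, 33.9% for E2F factors and cyclins, 32.8% for the chromatin and checkpoint genes, 16.3% for nucleotide supply, 16.04% for the polymerases, 13.2% for activation, 11.2% for licensing and 8.61% for the clamp group. Counting CM2 against all other nuclei, 38 of the 43 genes were 2-fold or more higher in CM2, where 12.6% of all genes were, and because the population was defined from expression in the same nuclei nothing is read from that count. The 5 below 2-fold were Mcm3, Mcm5, Pcna, Rfc3 and Rfc5. The log2 ratio was 6.83 for Neil3 (6.41 to 7.27), 5.66 for E2f7, 4.10 for Atad2, 2.48 for Pola1, 2.05 for Mcm6 and 0.51 for Pcna. For the sum it was 3.37 in WT-Sham, 2.55 in KO-Sham, 2.78 in WT-MI and 2.49 in KO-MI.

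**Figure D4:**
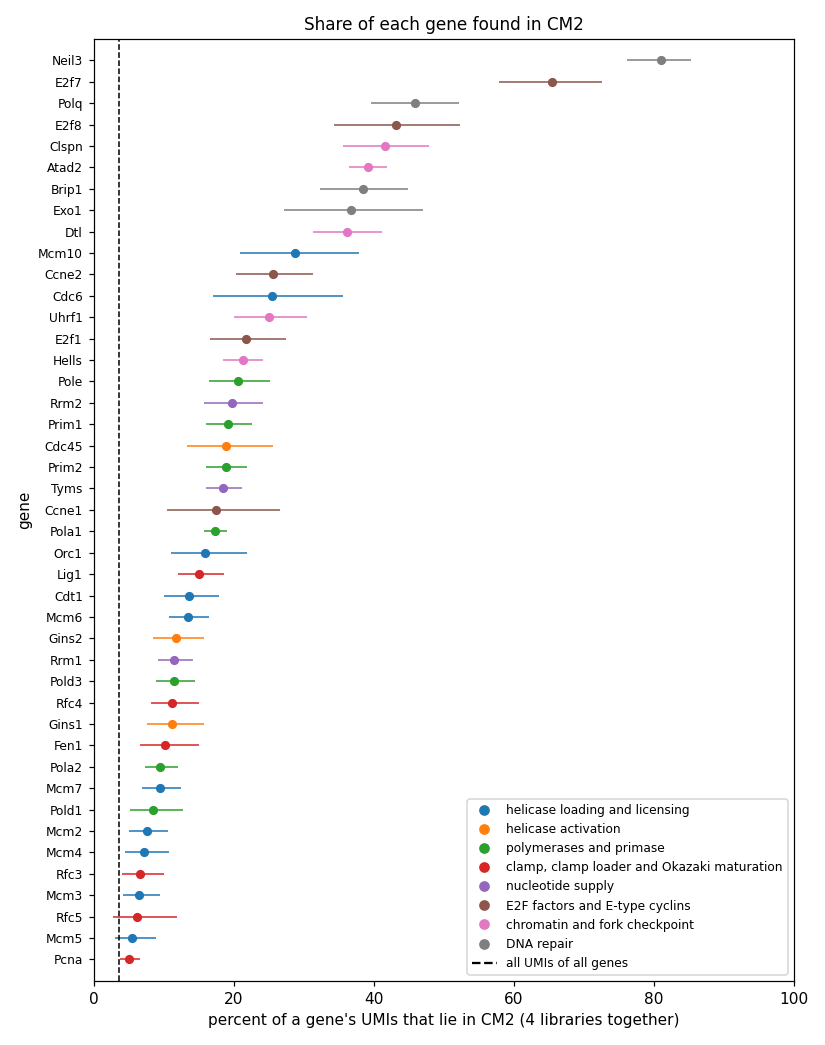
Percent of each gene's UMIs that lie in CM2 nuclei (x axis) for the 43 genes (y axis), all libraries together, with exact 95% intervals. The dashed line is the share of all UMIs in CM2, 3.62%. Neil3 stands at 81.0% and Pcna at 5.08%.

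Nuclei with many UMIs of these genes also occurred outside CM2. With 8 or more UMIs there were 29 in WT-Sham, 53 in KO-Sham, 63 in WT-MI and 90 in the library labelled KO-MI, 235 in all, of which 209 were in CM1. The cutoff of 8 was set after the values were seen and marks a range of a sum, not a type of nucleus. Their median depth was 4365 UMIs against 3844 in CM2. As the sum defines them, its level of 2598 CPM is no result, but 54 other replication genes outside the sum stood at 2142 CPM in these nuclei (2053 to 2234), against 827 in nuclei with 0 to 2 UMIs and 2964 in CM2. A list of 24 mitosis genes was at 397 CPM (359 to 438) in them, against 232 in nuclei with 0 to 2 UMIs and 3767 in CM2. In log2 terms the mitosis list was 3.25 higher in CM2 than in the nuclei with 8 or more UMIs, and the other replication list 0.47 higher. CM2 was defined from expression in these same nuclei, and the paper describes it as high in cell-cycle genes. Low mitosis transcripts outside CM2 can follow from that definition, so these differences are a description and not a finding.

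The levels of single genes of the set in these nuclei are a description, since the nuclei were selected by the sum that holds them. Mcm6 was at 108 CPM in the nuclei with 8 or more UMIs and at 74.1 in CM2, Pcna at 78.2 and 47.9, and Pola1 at 373 and 336. Neil3 was at 9.90 and 233 CPM, E2f7 at 10.9 and 107, E2f8 at 6.93 and 50.7 and Polq at 44.6 and 109. The proliferation marker Mki67 and the mitotic topoisomerase Top2a, which are no members, were at 15.8 and 245 CPM and at 51.5 and 559 CPM. Both belong to the mitosis list, and its limit holds for them too.

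**Figure D5:**
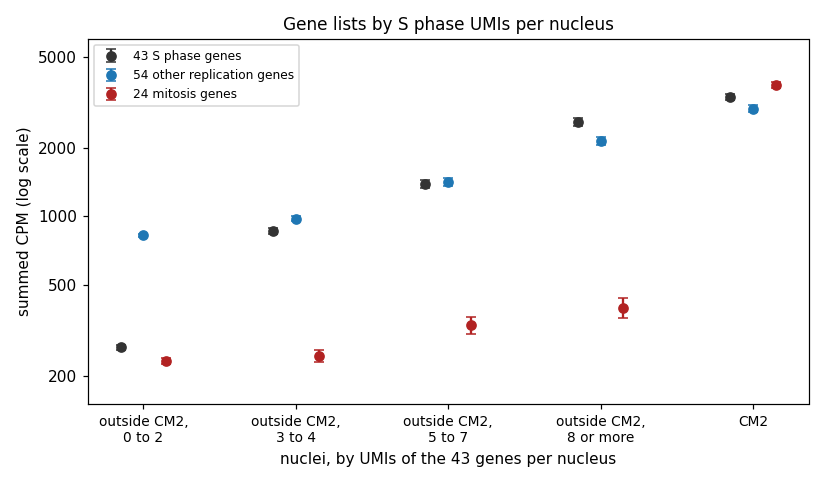
CPM (y axis, log scale) of the 43 replication genes, of 54 other replication genes and of 24 mitosis genes in classes of nuclei (x axis), namely nuclei outside CM2 with 0 to 2, 3 to 4, 5 to 7 and 8 or more UMIs of the 43 genes, and CM2. The replication lists are within a log2 difference of 0.47 between the last 2 classes for the 54 genes, while the mitosis list goes from 397 to 3767 CPM. CM2 was defined from expression in the same nuclei, so its levels are a description.

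CM2 nuclei differed in whether they held S phase transcripts, mitosis transcripts or both. With 8 or more UMIs of the 43 genes and 5 or more of the mitosis list, 21 of 27 nuclei in WT-Sham, 53 of 124 in KO-Sham, 32 of 57 in WT-MI and 37 of 67 in the library labelled KO-MI held both. Nuclei past the replication cutoff alone numbered 5, 22, 10 and 8, and past the mitosis cutoff alone 1, 41, 14 and 19, so KO-Sham was the library with the most nuclei of the last kind and WT-Sham the one with the fewest. The cutoffs are fixed numbers of UMIs, and median depth in CM2 was 3128.5 UMIs in KO-Sham against 4068 in WT-Sham, 4488 in WT-MI and 4377 in KO-MI. Outside CM2 both cutoffs were passed by 4, 5, 5 and 5 nuclei. A label transferred by the authors from an earlier reference split CM2 by the mitosis list more than by the replication genes. In nuclei with the transferred label CM5 the 43 genes were at 4642, 3046, 3393 and 3101 CPM and the mitosis list at 3600, 5082, 4927 and 4464 CPM. In those with the label CM1 the 43 genes were at 4318, 3090, 3687 and 3934 CPM and the mitosis list at 1285, 1406, 1515 and 1290 CPM, from 5, 24, 21 and 15 nuclei.

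The remaining genes of the pathway, the 54 other replication genes, leaned less than the 43. Over all nuclei their summed log2 ratio was 0.06, 0.12, -0.02 and 0.04 in the 4 comparisons. Of the 53 that could be compared 35, 41, 26 and 35 were above 0. Their median log2 ratio was 0.09, 0.12, -0.01 and 0.10, while the median over all genes was -0.09, 0.03, -0.07 and 0.04. Inside CM2 their sum was at 3982 CPM in WT-Sham, 2861 in KO-Sham, 2847 in WT-MI and 2816 in the library labelled KO-MI, so WT-Sham was again the highest. The 5 with the most UMIs in CM2 were the histone chaperone Nasp with 25, 69, 54 and 51 UMIs in the 4 libraries, the fork protection factor Tipin with 26, 65, 43 and 33, Wdr76 with 31, 50, 36 and 41, the helicase Blm with 21, 54, 31 and 40, and the repair gene Brca1 with 11, 54, 27 and 28. The mitosis list did not share the order, at 3200 CPM in WT-Sham, 4262 in KO-Sham, 3508 in WT-MI and 3526 in KO-MI inside CM2. There KO-Sham was the highest library for mitosis genes and the lowest for the 43 replication genes, with KO over WT ratios after Sham of 0.41 (0.25 to 0.58) and -0.61 (-0.76 to -0.46).

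RNA of other cell types inside CM2 was not arranged like the replication genes. The endothelial list was at 44.4 CPM in WT-Sham with 4 of its 8 genes at 0 (Pecam1, Tek, Emcn and Ptprb), and at 136 to 138 CPM in the other libraries with none at 0. The fibroblast list was at 703 to 920 CPM with Pdgfra at 0 in WT-Sham. The list of 9 myeloid genes was at 64.1 to 140 CPM with Csf1r, Ptprc, C1qb, Cd68, Adgre1, Mrc1 and F13a1 at 0 in WT-Sham. Csf1r and Cd68 were also at 0 in WT-MI, and Adgre1 and Mrc1 in KO-MI. In the 27 CM2 nuclei of WT-Sham the endothelial list had 5 UMIs and the myeloid list 8, too few to read a 0 as absence. Without the WT-MI nucleus rich in red blood cell RNA the 43 genes were at 3575 CPM in CM2 of WT-MI, and the ratios were -0.14 for KO over WT after MI and -0.36 for MI over Sham in WT.

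Across the 16 sums of 4 libraries and 4 populations, the genes outside the set whose level was most like the summed level of the 43 were Kntc1 (Pearson r of 0.98 on log2(CPM + 10)), Diaph3, Mki67, Esco2, Ube2t, Top2a, Topbp1, Mms22l, Fanca and Cit (0.97). They came from 9914 genes with at least 200 UMIs. The 16 points share libraries and depth, and the 4 sums of CM2 lie far from the other 12. Kntc1 acts in the spindle checkpoint, Esco2 helps to join sister chromatids during S phase, and Topbp1 acts at the start of replication and in its checkpoint.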

How the data were processed

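Nuclei of pooled heart tissue were sequenced as 10x Genomics 3′ libraries, for which the labels and the methods name different kit versions. The authors deposited UMI counts of 22574 genes in 8585 nuclei with no normalization, aligned with Cell Ranger (version not given in the sources used here) to a mm10/GRCm38 pre-mRNA reference, so introns were counted. Before deposit, Scrublet doublets, nuclei outside 200 to 2500 genes and non-cardiomyocyte clusters had been removed with Seurat 3, and CM1 and CM3 merged. The authors also deposited the percent of mitochondrial UMIs, a population label, a transferred label and its score as a fraction from 0 to 1, and 9 columns were not used. Column sums equalled the deposited totals in 100% of nuclei.

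The members and all lists were chosen with earlier results of these data known. UMIs were summed per library and population and divided by the summed total (CPM). With 1 library per group no test was made. Intervals are 95% exact intervals: Poisson for CPM, Clopper-Pearson for shares, conditional binomial for ratios and combined for differences of shares. A count of 0 was read against a floor of 3 UMIs. The interval functions were tested on simulated data. Nuclei were thinned without replacement to 1000 or 2000 UMIs (seed 7). Named were, per role group, the 2 genes with most UMIs, the 10 with most UMIs in CM2 (11 with a tie), every gene past 2-fold with 20 UMIs in any comparison over all nuclei or inside CM2, 5 other replication genes, and 10 genes like the sum. Other members stand as ranges. Of the 43 genes 20 overlap another gene. Alternatives were TMM (edgeR 4.0.16, R 4.3.3) and median-of-ratios factors, and other cutoffs, minimums and thinning depths. Further ones left out Pola1, overlapping genes or nuclei rich in other RNA, or replaced CM2 by the nuclei with the transferred label CM5. Python 3.11.15 was used with numpy 2.4.6, scipy 1.17.1, pandas 2.3.3 and matplotlib 3.10.9.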

Additional observations from a re-analysis of the deposited data

Results flagged for a closer look

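Results were picked out here where the same contrast pointed in opposite directions in a pair of groups. The differences between the groups were not tested, since each group had 1 library.

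In CM4 the summed log2 ratio of the 43 genes for KO over WT was -0.27 after Sham and 0.43 after MI. CM4 was also the population in which red blood cell, fibroblast and endothelial lists were high. Its median depth was 1715.5 UMIs per nucleus in WT-Sham, 1859 in KO-Sham, 1852.5 in WT-MI and 2394 in KO-MI. The median mitochondrial share of UMIs in CM4 was 14.6%, 11.6%, 10.8% and 9.47% in the same order. The part of these lists, of depth and of mitochondrial RNA was not tested.

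Pola1 inside CM2 had a log2 ratio for MI over Sham of -0.89 in WT and 0.45 in KO. The value in WT rests on 27 nuclei of WT-Sham, where Pola1 was at 604 CPM.

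Prim1 over all nuclei had a log2 ratio for KO over WT of -0.41 after Sham and 0.63 after MI, and for MI over Sham of -0.38 in WT and 0.66 in KO. These values are the same 4 libraries read in both directions. The UMIs of Prim1, 107 in WT-Sham, 147 in KO-Sham, 131 in WT-MI and 188 in the library labelled KO-MI, came from 88, 136, 119 and 147 nuclei with at most 4 in 1 nucleus.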

How the results depend on the processing

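No paired analysis was possible because each group had 1 library and so no second pair of libraries. Of the summed log2 ratios over all nuclei, outside CM2 and inside CM2, only KO over WT after MI inside CM2 changed sign. With TMM factors the summed log2 ratio for KO over WT after Sham was 0.32 over all nuclei and 0.32 outside CM2, that for MI over Sham in WT 0.22 and 0.25, and that for CM2 over the other nuclei 3.13, 2.40, 2.62 and 2.34 in WT-Sham, KO-Sham, WT-MI and KO-MI. Median-of-ratios factors gave 0.32 and 0.32 for KO over WT after Sham, 0.24 and 0.25 for MI over Sham in WT, 0.072 and 0.10 for MI over Sham in KO, and -0.22 inside CM2 for MI over Sham in WT. Thinned to 1000 UMIs, KO over WT after Sham was 0.090 over all nuclei and 0.067 outside CM2, KO over WT after MI 0.28 over all nuclei and 0.21 inside CM2, MI over Sham in KO 0.27 over all nuclei, 0.28 outside and 0.25 inside CM2, MI over Sham in WT -0.59 inside CM2, and CM2 over the rest 2.60 in WT-MI. Without the nuclei richest in RNA of other cell types, KO over WT was 0.30 and 0.33 after Sham and 0.055 inside CM2 after MI. Without the 20 genes that overlap another gene, MI over Sham in KO was 0.061 and 0.094. In another setting CM2 was replaced by the 198 nuclei with the transferred label CM5, the most common one in CM2. Of these 197 lay in CM2, so the setting mostly took a part of the same nuclei. These nuclei over the rest were at 2.64 in WT-MI and 2.33 in KO-MI.

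Share differences are in percentage points. KO over WT after Sham was -4.05 over all nuclei and -5.09 outside CM2 at a cutoff of 2 UMIs. It was 6.11 and 4.88 after thinning to 2000 UMIs at that cutoff, a change of sign with a step that also left out shallower nuclei. Thinned to 1000 UMIs at 1 UMI it was 1.12 (-1.94 to 4.15) and 0.412 (-2.66 to 3.45). MI over Sham in WT was 4.15 and 3.78 at 5 UMIs, 0.53 and 0.37 thinned to 1000 UMIs at 1 UMI, 4.20 and 3.89 thinned to 2000, and 13.1 and 12.9 without nuclei rich in other RNA. MI over Sham in KO was 18.0 and 18.9 at 2 UMIs, 6.91 and 7.14 at 5, 4.37 and 4.68 thinned to 1000, and 2.40 and 3.23 thinned to 2000. Inside CM2 a cutoff of 5 UMIs gave -19.4 for KO over WT after Sham and 2.94 for MI over Sham in KO, against -8.06 and -6.86 at 3 UMIs. Thinned to 2000 UMIs at a cutoff of 3, MI over Sham in WT inside CM2 was -22.8 against -8.77 unthinned. In CM5 MI over Sham in KO was 7.57 unthinned (0.726 to 14.1) and -7.12 thinned to 2000 UMIs (-13.1 to -1.79), a change of sign with both intervals leaving out 0. Genes past 2-fold over all nuclei, 5 counts over the 4 comparisons at a minimum of 20 UMIs, came to 1 at a minimum of 50. Leaving out nuclei with 100 or more red blood cell UMIs, added after the data were seen, moved none of its 24 values past counting error. The causes of these changes were not tested beyond what each setting removes by construction. Depth limits single genes in CM2 of WT-Sham, where many rest on fewer than 20 UMIs.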
